A study of Mus musculus with 10 samples.

Results

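The genes described here are 10 identity genes of the endothelium, the cell layer that lines blood vessels: the general endothelial genes Pecam1, Cdh5, Cldn5 and Erg, the capillary genes Plvap, Gpihbp1 and Car4, and the venous or adhesion genes Vwf, Selp and Sele. They were taken by gene name from the P30 table of gene expression, which lists 54532 genes, and all 10 were found and had a mean of at least 0.1 FPKM (fragments scaled by gene length and library size). The lungs came from wild-type C57BL/6J mice. The IPF group (increased pulmonary flow) had an aortocaval fistula made at P7 by a needle puncture between the abdominal aorta and the vena cava, which sends extra blood through the lungs, and the sham group had the operation without the puncture. Whole lungs of 5 IPF and 5 sham mice were frozen at P30 and their mRNA was sequenced, and pups of either sex were used according to the methods. The comparison asked whether endothelial identity differed between lungs with and without the fistula. No cells were sorted, so fewer cells of a type and less RNA per cell cannot be told apart.

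Endothelial cells share a set of genes that hold them together and keep their fate. Cdh5 (VE-cadherin) and Pecam1 (CD31) join neighbouring cells, Cldn5 seals tight junctions, and Erg is a transcription factor of the ETS family, whose members bind DNA at a GGAA core. The lung capillary bed holds general capillary cells, which carry Plvap and Gpihbp1, and aerocytes, large cells of the gas exchange surface that carry Car4. Vwf is the clotting protein stored in Weibel-Palade bodies, and P-selectin (Selp) and E-selectin (Sele) catch rolling leukocytes, mainly on venules and after activation.

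Between 16250190 and 19026843 reads on genes lay behind the values of each IPF lung, and between 15483046 and 17818542 behind those of each sham lung. The groups also differed in features that the labels do not record. Xist, which is transcribed from the inactive X chromosome, averaged 34.1 FPKM in the IPF and 0.0493 FPKM in the sham lungs, while the Y-linked Ddx3y was listed at 0 in all 5 IPF lungs and averaged 17.4 FPKM in the sham lungs. Of 12 circadian clock genes, 11 passed the test, 3 higher and 8 lower in the IPF group. Sex and the fistula, and likewise the clock difference and the fistula, cannot be told apart in any result here. Lung identity was clear, with Sftpc, the surfactant protein C gene of alveolar type 2 cells, at 9437 FPKM or above in every sham lung. Sham replicate 1 had the lowest Sftpc and the most genes above 0, 25486 against 22475 to 23575 in the other lungs. IPF replicate 5 had the highest S100a9, a neutrophil gene, at 185 FPKM against 29.3 to 41.2 FPKM in the other IPF lungs.

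The 250 bases before the gene start are shown for the only member that passed the test, Cldn5, and for the neighbouring selectin genes Selp and Sele, which had the lowest levels. They are RefSeq sequences of GRCm38.p6, at chr16:18776597-18776846 for Cldn5, chr1:164115014-164115263 for Selp and chr1:164047984-164048233 for Sele, all on the + strand and written 5′ to 3′. Capitals mark 3 motifs searched on both strands: GGAA or its reverse TTCC, CCAAT or its reverse ATTGG, and TATAAA or its reverse TTTATA.
Cldn5: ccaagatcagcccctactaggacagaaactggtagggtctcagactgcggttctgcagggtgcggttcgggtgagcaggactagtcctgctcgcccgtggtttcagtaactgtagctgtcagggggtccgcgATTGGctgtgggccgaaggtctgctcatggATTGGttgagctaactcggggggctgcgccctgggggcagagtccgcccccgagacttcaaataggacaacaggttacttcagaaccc
Selp: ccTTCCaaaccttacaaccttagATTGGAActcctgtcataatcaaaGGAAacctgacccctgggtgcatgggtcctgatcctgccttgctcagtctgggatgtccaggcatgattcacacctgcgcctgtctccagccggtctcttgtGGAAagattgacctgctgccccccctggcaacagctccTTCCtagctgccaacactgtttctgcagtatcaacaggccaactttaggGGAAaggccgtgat
Sele: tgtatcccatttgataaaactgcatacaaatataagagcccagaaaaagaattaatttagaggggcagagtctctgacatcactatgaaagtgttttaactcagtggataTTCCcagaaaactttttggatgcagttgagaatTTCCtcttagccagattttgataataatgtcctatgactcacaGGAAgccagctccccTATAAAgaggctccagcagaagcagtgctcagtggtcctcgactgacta

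The Cldn5 stretch held no GGAA and 2 CCAAT motifs, both in reverse, which begin 118 and 88 bases before the gene start. The Selp stretch held 6 GGAA motifs, of which the one that begins 224 bases before the start shares bases with a reverse CCAAT motif. The Sele stretch held 3 GGAA motifs and a TATAAA motif 49 bases before the start. Of 32851 promoter stretches of this length in the same table, 93.4% held GGAA, with a median of 3 matches, 33.8% held CCAAT and 12.4% held TATAAA. Erg and Car4 also had an entry, with 0 and 4 GGAA motifs, and Pecam1, Cdh5, Vwf, Plvap and Gpihbp1 had none. These matches describe letters in a window and carry no measurement of binding.

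Of the 4 general endothelial genes, Cldn5 rose in the IPF lungs and the other 3 did not pass the test. Cldn5 (ENSMUSG00000041378, chr16:18776847-18778262, GRCm38) measured 461, 432, 481, 432 and 447 FPKM in IPF replicates 1 to 5. In the sham lungs it measured 238, 328, 340, 338 and 299 FPKM. Every IPF lung was above every sham lung, and sham replicate 1 was the lowest of all. The means were 451 ± 20.7 (SD, n = 5) and 309 ± 42.8 FPKM (SD, n = 5), a 1.47-fold difference with a 95% confidence interval of 1.25 to 1.73. The difference in log2(FPKM + 0.1), a scale that compresses the changes of low genes, was 0.56 ± 0.11 (SE), with an adjusted p of 0.0107 in limma over all 20448 genes tested. The exact two-sided permutation test over the 252 assignments of the lungs gave p = 0.00794, the smallest it can give. With each lung left out in turn the log2 difference lay between 0.47, without sham replicate 1, and 0.60, and the adjusted p in limma between 0.00737 and 0.0320.

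Pecam1 (ENSMUSG00000020717, chr11:106654217-106750628) measured 168, 167, 156, 179 and 189 FPKM in the IPF lungs and 186, 163, 184, 168 and 189 FPKM in the sham lungs. The groups overlapped nearly fully, with a log2 difference of -0.05 (95% confidence interval -0.21 to 0.11, adjusted p = 0.753 in limma). Pecam1 is also carried by platelets and leukocytes, so its level is not set by endothelium alone. Cdh5 (ENSMUSG00000031871, chr8:104101625-104144511) measured 326, 264, 285, 322 and 332 FPKM in the IPF and 312, 266, 272, 263 and 287 FPKM in the sham lungs. IPF replicates 1, 4 and 5 were above every sham lung, and replicates 2 and 3 were not. The log2 difference of Cdh5 was 0.12 (-0.07 to 0.32), with an adjusted p of 0.486 in limma. With a lung left out, the exact permutation test of Cdh5 gave p from 0.0476 to 0.286, under 0.05 in 1 of 10 fits. The adjusted p in limma then lay between 0.330 and 0.640. Erg (ENSMUSG00000040732, chr16:95359169-95586593) measured 42.0, 34.4, 41.2, 36.4 and 53.4 FPKM in the IPF and 43.3, 42.1, 36.5, 41.2 and 40.9 FPKM in the sham lungs. IPF replicate 5 was the highest and IPF replicates 2 and 4 were below every sham lung, and Erg varied more in the IPF group (coefficient of variation 17.8%) than in the sham group (6.35%). Its log2 difference was 0.01 (-0.22 to 0.24), with an adjusted p of 0.978 in limma.

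**Figure D1:**
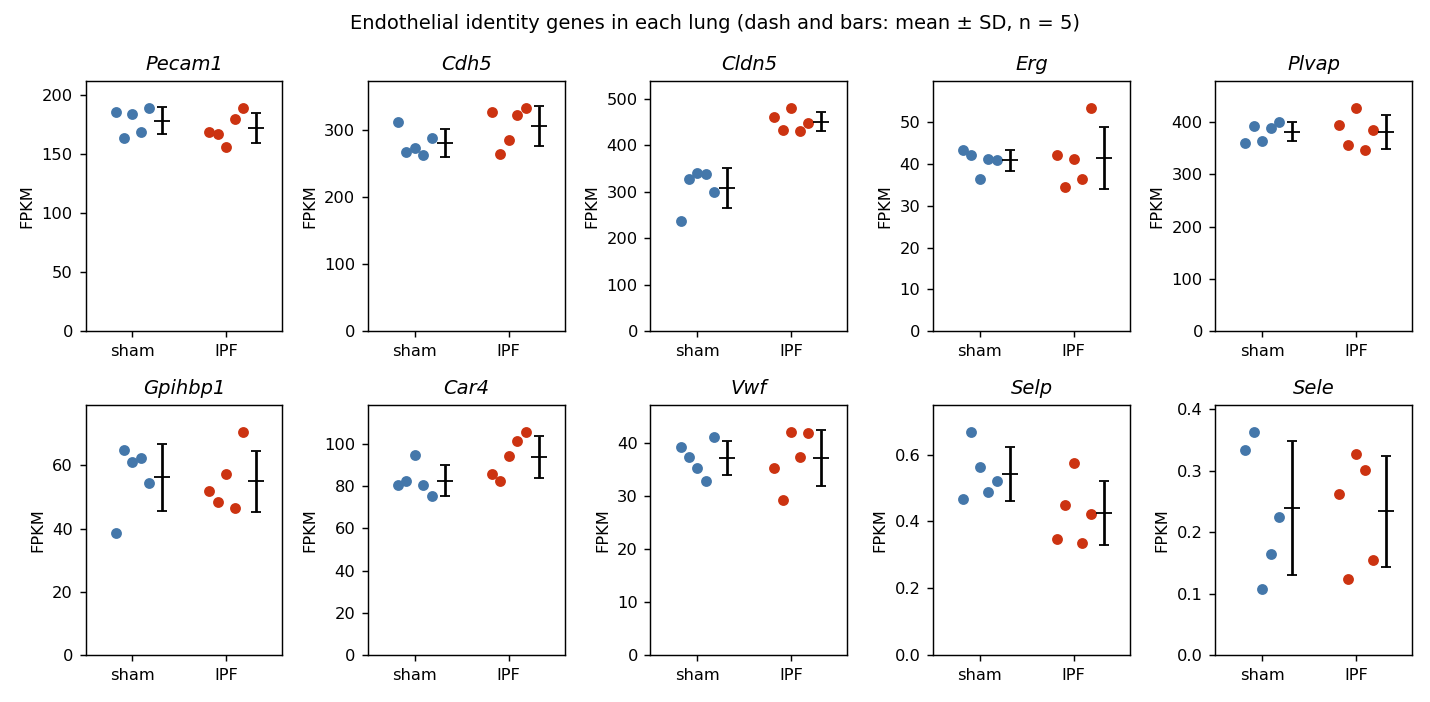
Expression of the 10 endothelial identity genes in each lung, with FPKM on the vertical axis from 0 and the sham and IPF groups side by side; points are lungs in replicate order, and the dash with bars is the mean ± SD (n = 5 per group). Cldn5 is the only gene whose groups do not overlap, with 432 to 481 FPKM in the IPF and 238 to 340 FPKM in the sham lungs.

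None of the 3 capillary genes passed the test. Plvap (ENSMUSG00000034845, chr8:71497765-71511752), which forms the diaphragms of fenestrae and caveolae, measured 394, 356, 427, 346 and 384 FPKM in the IPF and 360, 392, 363, 389 and 400 FPKM in the sham lungs. The IPF values spread around the sham values on both sides, and the log2 difference was -0.00 with a 95% confidence interval of -0.18 to 0.18 (adjusted p = 0.998 in limma). Gtpbp3, on the opposite strand, overlaps Plvap and averaged 6.06 FPKM, and whether strand was used in counting is not given in the sources used here. Gpihbp1 (ENSMUSG00000022579, chr15:75596628-75599481), which carries lipoprotein lipase to the capillary surface, measured 51.8, 48.6, 57.3, 46.5 and 70.7 FPKM in the IPF and 38.5, 64.96, 61.1, 62.3 and 54.4 FPKM in the sham lungs. Sham replicate 1 was the lowest and IPF replicate 5 the highest, and the rest overlapped. The log2 difference of Gpihbp1 was -0.03 (-0.36 to 0.31, adjusted p = 0.953 in limma), and -0.16 without sham replicate 1. Car4 (ENSMUSG00000000805, chr11:84957786-84966044), a carbonic anhydrase fixed to the cell surface, measured 85.7, 82.4, 94.3, 102 and 106 FPKM in the IPF and 80.4, 82.3, 94.7, 80.4 and 75.4 FPKM in the sham lungs. Its 2 highest lungs were IPF replicates 4 and 5, and sham replicate 3 lay above the other 3 IPF lungs. The log2 difference of Car4 was 0.18 (-0.01 to 0.37), with an adjusted p of 0.269 in limma and p = 0.0714 in the exact permutation test. With a lung left out, the permutation p lay between 0.0317 and 0.159, under 0.05 in 1 of 10 fits. The adjusted p in limma then lay between 0.174 and 0.441.

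None of the 3 venous or adhesion genes passed the test. Vwf (ENSMUSG00000001930, chr6:125546774-125686679) measured 35.4, 29.3, 42.2, 37.4 and 41.9 FPKM in the IPF and 39.2, 37.3, 35.3, 32.9 and 41.1 FPKM in the sham lungs. The groups overlapped, with a log2 difference of -0.01 (-0.23 to 0.22, adjusted p = 0.986 in limma). Selp (ENSMUSG00000026580, chr1:164115264-164150026) was near the lower end of what was tested, with 26 to 53 reads per lung. It measured 0.346, 0.449, 0.575, 0.336 and 0.423 FPKM in the IPF and 0.467, 0.670, 0.565, 0.490 and 0.520 FPKM in the sham lungs. All IPF lungs but replicate 3 lay below every sham lung. The log2 difference of Selp was -0.30 (-0.70 to 0.10), with an adjusted p of 0.400 in limma and p = 0.0794 in the exact permutation test. Without IPF replicate 3 it was -0.39. That lung alone overlapped the sham lungs, so without it the groups were separate. The exact permutation test then had to give its smallest p, 0.00794, and no conclusion is drawn from it. In limma the adjusted p for Selp stayed between 0.243 and 0.572 whichever lung was left out. Sele (ENSMUSG00000026582, chr1:164048234-164057677) had 5 to 19 reads per lung, with 0.262, 0.124, 0.327, 0.301 and 0.155 FPKM in the IPF and 0.333, 0.364, 0.107, 0.165 and 0.225 FPKM in the sham lungs. The values of both groups were mixed, and the interval of the log2 difference of Sele, -0.67 to 0.66, was so wide that a change within it was not detectable at this depth.

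Among the 10 genes, 1 passed an adjusted p under 0.05, beside 5.85% of all genes tested (3.71% upward, the direction of Cldn5), and 0 passed with an absolute log2 difference above 1 in addition, beside 1.14% of all genes. Groups that did not overlap, with the IPF lungs above, were found for 1 of the 10 genes and 4.52% of all genes, and with the IPF lungs below for 0 of the 10 and 2.77% of all genes (7.29% either way). The median log2 difference over the 10 genes was -0.00 and over all genes 0.00. For 7 of the 10 genes the whole 95% confidence interval lay within 0.5 of 0 on the log2 scale. The genes outside it were Cldn5, Selp and Sele.

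In the sham lungs the order of levels per gene length was Plvap (381 FPKM), Cldn5 (309), Cdh5 (280), Pecam1 (178), Car4 (82.7), Gpihbp1 (56.3), Erg (40.8), Vwf (37.2), Selp (0.542) and Sele (0.239). Cldn5 and Cdh5 overlapped between lungs, as did Gpihbp1 with Erg and Erg with Vwf, while the ranges of the other neighbours were separate. In the IPF lungs Cldn5 came first at 451 FPKM, ahead of Plvap at 381 FPKM, and the other 8 genes kept their order. Gpihbp1 (55.0 FPKM) again overlapped with Erg (41.5 FPKM), and Erg with Vwf (37.2 FPKM), while the ranges of all other neighbours were separate. The selectins were thus far below the other 8 genes in both groups.

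To contrast capillary and venous or adhesion genes with general endothelial genes of the same lung, the mean log2 level of Pecam1, Cdh5, Cldn5 and Erg was subtracted from every gene, which moved the median of all genes by -0.16. Relative to these 4 genes, Cldn5 differed by 0.40 (95% confidence interval 0.15 to 0.65, adjusted p = 0.0424 in limma), and it was the only member to pass, beside 11.9% of all genes (1.8% upward). Pecam1, itself part of the reference, differed by -0.21 (-0.37 to -0.05, adjusted p = 0.0791 in limma), Cdh5 by -0.04 and Erg by -0.15. With single lungs left out Cldn5 passed in 1 of 10 fits, with adjusted p-values in limma from 0.0353 to 0.0890. The capillary genes differed by -0.16 for Plvap (-0.35 to 0.03), -0.19 for Gpihbp1 (-0.49 to 0.12) and 0.02 for Car4 (-0.15 to 0.20), and none passed. Without sham replicate 1 the relative difference of Gpihbp1 was -0.31 (adjusted p = 0.0667 in limma). Among the venous or adhesion genes the relative differences were -0.17 for Vwf (-0.35 to 0.02), -0.46 for Selp (-0.89 to -0.02, adjusted p = 0.154 in limma) and -0.16 for Sele (-0.85 to 0.52), and none passed.

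Cldn5 is itself in that reference and differed between the groups, so the contrast was repeated against Pecam1, Cdh5 and Erg, a choice made after the data were seen. The capillary genes then differed by -0.03 for Plvap (-0.27 to 0.22), -0.05 for Gpihbp1 (-0.41 to 0.30) and 0.16 for Car4 (-0.05 to 0.36). The difference was -0.03 for Vwf (-0.22 to 0.15), -0.33 for Selp (-0.79 to 0.14) and -0.03 for Sele (-0.71 to 0.65). Cldn5 differed by 0.53 (0.21 to 0.85), with an adjusted p of 0.0674 in limma. Relative to Pecam1, Cdh5 and Erg 0 members passed, beside 886 of all 20448 genes tested (400 upward). Averaged over the 3 capillary genes, the level relative to Pecam1, Cdh5 and Erg was -0.05 ± 0.10 (SD, n = 5) in the IPF and -0.07 ± 0.20 (SD, n = 5) in the sham lungs on the log2 scale. For the 3 venous or adhesion genes it was -6.13 ± 0.25 in the IPF and -6.00 ± 0.19 in the sham lungs. Both differences were smaller than the SD between lungs of either group. Relative to all 4 general genes, Cldn5 included, the capillary average was -0.50 ± 0.08 in the IPF and -0.39 ± 0.13 in the sham lungs, a difference of -0.11 that was larger than the SD of the IPF group only. The venous or adhesion average was then -6.58 ± 0.22 and -6.32 ± 0.21, a difference of -0.26 that was larger than the SD of either group.

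**Figure D2:**
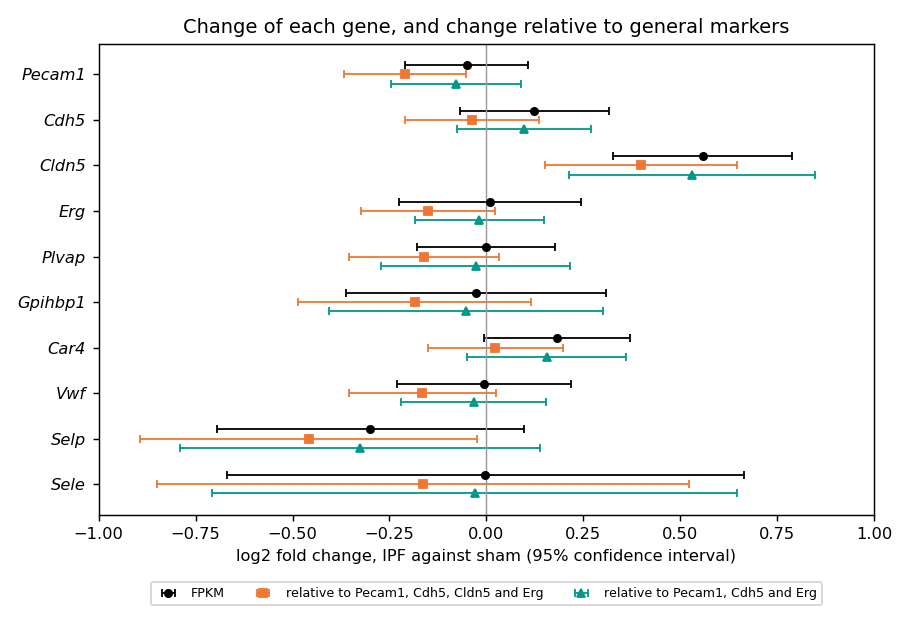
Difference between IPF and sham lungs for each endothelial identity gene on the log2 scale (horizontal axis), as points with 95% confidence intervals from limma, for the level itself (black), relative to the mean of Pecam1, Cdh5, Cldn5 and Erg (orange) and relative to the mean of Pecam1, Cdh5 and Erg (green). Cldn5 lies right of 0 on all 3 scales, at 0.56, 0.40 and 0.53, and the intervals of the 3 capillary genes and of Vwf and Sele include 0 on all 3, while those of Pecam1 and Selp lie below 0 on the orange scale only.

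Cldn5 and Cdh5 are both junction genes of the whole endothelium. The lung with the lowest Cldn5, sham replicate 1 at 238 FPKM, had the highest Cdh5 of the sham group, 312 FPKM. IPF replicate 2 had a Cdh5 level of 264 FPKM, within the sham range, and a Cldn5 level of 432 FPKM, above every sham lung. Relative to Cdh5 alone the log2 difference of Cldn5 was 0.43 (adjusted p = 0.136 in limma) and relative to Pecam1 alone 0.61 (adjusted p = 0.0326).

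**Figure D3:**
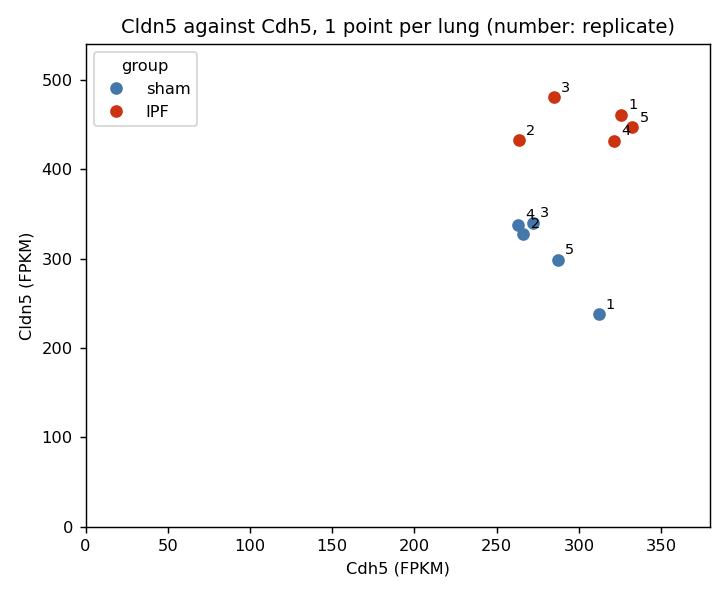
Cldn5 level against Cdh5 level in FPKM, 1 point per lung, with both axes from 0, the group by colour and the replicate number beside each point. The IPF lungs lie above the sham lungs on the Cldn5 axis, while on the Cdh5 axis the IPF lungs (264 to 332 FPKM) and sham lungs (263 to 312 FPKM) overlap.

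Among lungs of the same group, 5 pairs of the genes were compared after the group means were removed, over 10 lungs and with exact permutation within groups. Pecam1 and Cdh5 varied together most (Pearson's r = 0.69, exact permutation p = 0.0481, adjusted p = 0.241, Spearman's rho = 0.733, permutation p = 0.0354, adjusted p = 0.177), and r was 0.658 without the 2 lungs farthest from the median of Pecam1. No pair passed after adjustment. Pearson's r was 0.405 for Gpihbp1 and Car4, 0.488 for Plvap and Gpihbp1, 0.180 for Vwf and Selp and 0.0702 for Selp and Sele, with permutation p-values of 0.250, 0.159, 0.688 and 0.849 and adjusted p-values of 0.416, 0.398, 0.849 and 0.849. Spearman's rho of these 4 pairs was 0.382, 0.418, 0.103 and -0.0545, with permutation p-values of 0.299, 0.287, 0.799 and 0.874 and adjusted p-values of 0.498, 0.498, 0.874 and 0.874. Without the 2 lungs farthest from the median of the gene named first, r was 0.268, 0.484, 0.362 and -0.883, so the value for Selp and Sele rests on 2 lungs.

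The genes whose pattern over the 10 lungs was most like that of a member, again with group means removed, were searched among 12068 protein-coding genes with a mean of at least 1 FPKM. For Cldn5 they were Ppp1r35, Aamp and Azin2 (r from 0.964 to 0.974), for Cdh5 Phf2, Ttc17 and Pkd1 (0.978 to 0.988), for Pecam1 Dnajc18, Mbtps1 and Apcdd1 (0.943 to 0.978), and for Erg Ccbe1, Tob2 and Mettl21e (0.949 to 0.971). For Plvap they were Pxmp4, Tigar and Tmem59l (0.916 to 0.938), for Gpihbp1 Gnmt, Ptgis and Tigd2 (0.961 to 0.973) and for Car4 Rdh13, Prcd and Cdk5rap1 (0.897 to 0.925). Vwf was closest to Pip5k1b, Slc16a7 and Top3a (0.931 to 0.964), Selp to Plat, Dnajc12 and Lyz1 (0.939 to 0.976), and Sele to Malt1, Lrrn4cl and Heatr1 (0.863 to 0.967). These are the highest of many values over few lungs, which share library depth and tissue sampling, and they describe these lungs only. None of the 8 members in the search was among the genes closest to another member, and Selp and Sele, below 1 FPKM, were not searched.

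Around the 10 genes, 13 lists of related genes held 155 genes, of which 144 were tested and 21 passed, 20 upward and 1 downward. That is 14.6%, beside 5.85% of all genes, and the median log2 difference was 0.10. With only genes of at least 1 FPKM tested, 1284 of 13445 genes passed. The lists were chosen with earlier results of these data known, and the difference in share was not tested. The count of 21 moved with single lungs, to 12 without IPF replicate 1, IPF replicate 4, sham replicate 1 or sham replicate 3. It was 13 without IPF replicate 2 and 33 without IPF replicate 5. Counts of single lists moved as well, over 1 to 5 for aerocyte, 1 to 4 for general capillary, 0 to 3 for other venous, 0 to 4 for arterial, 0 to 4 for activation and 0 to 3 for lipoprotein lipase genes, each highest without IPF replicate 5.

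Of 32 other general endothelial genes, 5 rose and 0 fell, with a median log2 difference of 0.15. Lmo2, a cofactor of blood and vessel development, averaged 41.1 ± 2.19 FPKM in the IPF and 27.0 ± 2.83 FPKM in the sham lungs (SD, n = 5), a log2 difference of 0.61 (adjusted p = 0.00136 in limma). Myct1 rose from 24.6 to 37.2 FPKM (0.59, adjusted p = 0.00345) and Sox18, a transcription factor of developing vessels, from 80.9 to 115 FPKM (0.51, adjusted p = 0.00585). The others that rose, named beyond the rule, were the transcription factors Fli1 (0.33) and Tal1 (0.28), and Tal1 passed in 2 of 10 fits with a lung left out. Lmo2, Fli1 and Tal1 are also used by blood cells. In the same lungs 3 of 7 leukocyte genes rose, Ptprc in 10 of 10 fits with a lung left out but Cd52 in 3 and Cd53 in 2. The summed level of that list was 201 to 239 FPKM in the IPF lungs and 105 to 177 FPKM in the sham lungs, with Ptprc (CD45) at 6.22 ± 0.319 FPKM and 4.62 ± 0.434 FPKM. The part of leukocytes in these changes was not tested.

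Of the 9 other aerocyte genes, 2 rose, with a median of 0.20. Chst1, a sulfotransferase, averaged 13.2 and 10.1 FPKM in the IPF and sham lungs (0.38, adjusted p = 0.00833 in limma), and Rprml 4.12 and 2.05 FPKM (0.99, adjusted p = 0.0193) from 23 to 90 reads per lung. Rprml passed in 6 of 10 fits with a lung left out. Of 8 general capillary genes, 3 rose, with a median of 0.24. Aplnr, the apelin receptor of general capillary cells, averaged 39.5 ± 10.0 FPKM in the IPF and 21.7 ± 1.76 FPKM in the sham lungs (0.82, adjusted p = 0.0103). Nostrin (0.26) and Glp1r (0.42) rose less and passed in 3 and 4 of 10 fits. Capillary genes thus include some that rose while Plvap, Gpihbp1 and Car4 did not pass, and the difference between these groups of genes was not tested.

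Of 8 other venous genes tested, 1 rose: Nr2f2, a transcription factor of venous identity, from 11.6 to 15.1 FPKM (0.37, adjusted p = 0.0280 in limma), which passed in 3 of 10 fits with a lung left out. Of 13 arterial genes, 2 rose, the connexins Gja5, from 8.10 to 13.7 FPKM (0.76, adjusted p = 0.0211), and Gja4, from 41.9 to 57.4 FPKM (0.44, adjusted p = 0.0270). They passed in 6 and 2 of 10 fits. The medians were 0.13 for the venous and 0.06 for the arterial list.

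Of 10 genes of Weibel-Palade bodies, the stores of Vwf and P-selectin, 1 rose and 1 fell, with a median of 0.11. Angpt2, an antagonist of the Tie2 receptor that is stored there, measured 10.6 to 14.6 FPKM in the IPF and 4.04 to 6.40 FPKM in the sham lungs. The log2 difference was 1.24 (95% confidence interval 0.98 to 1.51, adjusted p = 0.000338 in limma), and it passed in 10 of 10 fits with a lung left out. Plat, tissue plasminogen activator, fell by 0.36 on the log2 scale (adjusted p = 0.0462) and passed in 1 of 10. Of 11 genes of endothelial activation, 1 rose, the chemokine gene Ccl2, with 5 to 24 reads per IPF lung and 0.613 FPKM against 0.106 FPKM on average (adjusted p = 0.0371), which passed in 2 of 10. The median of that list was -0.05, and Icam1, a leukocyte adhesion receptor named beyond the rule, averaged 88.3 and 97.5 FPKM (-0.14, adjusted p = 0.219).

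Of 7 selectin partners, the ligands and the enzymes that build them, 2 rose, with a median of 0.18. Selplg, the leukocyte ligand of P-selectin, averaged 10.2 ± 1.19 FPKM in the IPF and 6.88 ± 0.597 FPKM in the sham lungs (0.55, adjusted p = 0.00571 in limma). Gcnt1, an enzyme of the sugar ligands, rose by less (0.42, adjusted p = 0.0438) and passed in 2 of 10 fits with a lung left out. Selplg is a leukocyte gene, and the summed leukocyte list was higher in all 5 IPF lungs than in any sham lung, as given above. The part of leukocytes in the Selplg difference was not tested. Neutrophil genes averaged higher for 9 of 9, with a median of 0.89 and 0 that passed, and their summed level was 56.7 to 305 FPKM in the IPF and 17.0 to 89.0 FPKM in the sham lungs.

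None of 13 partners of adherens and tight junctions passed, with a median of 0.11, and the most abundant, Ctnna1 (α-catenin), averaged 211 and 226 FPKM (-0.10, adjusted p = 0.506 in limma). In the claudin family, chosen after Cldn5 was seen to differ, 16 genes were tested and 2 passed, Cldn5 upward and Cldn12 downward, from 10.6 to 8.19 FPKM (-0.38, adjusted p = 0.0216). The alveolar claudin Cldn18 averaged 206 and 233 FPKM (-0.18, adjusted p = 0.208). In a list of 8 tested ETS factors, which leaves out Erg and Fli1, 2 rose, Elk3 (0.31, adjusted p = 0.00608) and Ets1 (0.32, adjusted p = 0.01004), with a median of 0.08. Ets1 did not pass with quantile normalization (0.26, adjusted p = 0.0837), and the count was then 1. Fli1, an ETS factor counted above among the general endothelial genes, also rose.

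None of 7 genes of caveolae and their diaphragms passed, with a median of -0.02. Cav1, the coat protein of caveolae, averaged 514 and 449 FPKM (0.19, adjusted p = 0.301 in limma). None of 9 genes of the lipoprotein lipase pathway, in which Gpihbp1 acts, passed, with a median of 0.27, and Cd36, a fatty acid transporter, averaged 381 and 302 FPKM (0.33, adjusted p = 0.115). With voom on recovered reads Cd36 passed (adjusted p = 0.0352). Angptl4, an inhibitor of lipoprotein lipase named after its values were seen, differed most in that list and the other way, with 9.59 ± 6.55 FPKM in the IPF and 19.3 ± 3.61 FPKM in the sham lungs (-1.18, adjusted p = 0.0523 in limma), and 4 of 5 IPF lungs were below every sham lung. Of 11 carbonic anhydrases tested, 1 rose, Car2, the main cytosolic form, from 40.2 ± 4.87 to 61.0 ± 2.14 FPKM (0.61, adjusted p = 0.00158), with a median of 0.02.

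**Figure D4:**
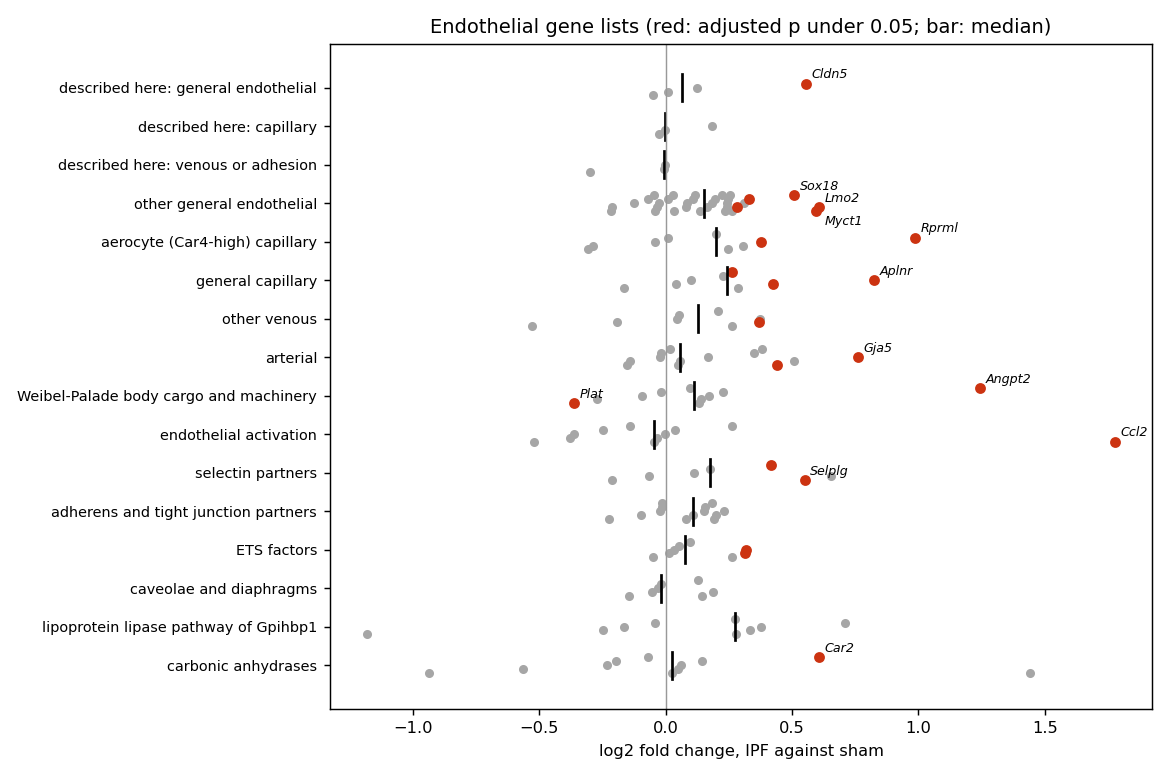
Log2 difference between IPF and sham lungs (horizontal axis) for each tested gene of the endothelial lists (vertical axis, 1 list per line), with genes at an adjusted p under 0.05 in red and others in grey, and a black bar at the median of each list. The medians lie between -0.05 and 0.27, and Angpt2 at 1.24 is the largest of the called genes that passed with every lung left out.

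Other cells of the lung that carry the members or share their genes were measured too. Platelets carry Vwf, Selp and Pecam1, and 0 of 11 platelet genes passed. Their summed level was 30.3 to 41.4 FPKM in the IPF and 24.5 to 37.5 FPKM in the sham lungs. Of these 11 genes, 6 averaged higher in the IPF lungs, with a median log2 difference of 0.005. Pf4, platelet factor 4, averaged 12.9 and 8.52 FPKM (0.57, adjusted p = 0.112 in limma), with 4 of 5 IPF lungs above every sham lung, and it passed in 1 of 10 fits with a lung left out, without IPF replicate 1 (adjusted p = 0.0489). Lymphatic vessels carry Pecam1 and Cdh5, and 1 of 7 lymphatic genes rose, Thy1, which T cells and fibroblasts also carry, while the summed level was 166 to 298 FPKM in the IPF and 251 to 287 FPKM in the sham lungs. That sum was below every sham lung in 4 of 5 IPF lungs, and Lyve1, which makes up most of it, averaged 179 and 245 FPKM (-0.50, adjusted p = 0.128 in limma). By their means, 4 of the 7 lymphatic genes were higher in the IPF lungs, with a median of 0.06. Prox1 averaged 0.481 and 0.452 FPKM. Thy1 passed in 6 of 10 fits with a lung left out. Pericyte genes, 1 of 8 of which passed (Cspg4, lower), summed to 270 to 327 FPKM and 278 to 309 FPKM. Of the 8, 5 averaged higher in the IPF lungs, with a median of 0.05. Among 6 fibroblast genes Pdgfra rose, which passed in 6 of 10 fits with a lung left out and not with quantile normalization (adjusted p = 0.0559 in limma). The fibroblast median was -0.10, and 2 of the 6 averaged higher in the IPF lungs. None of the remaining lists had a gene that passed, with 0 of 7 smooth muscle, 0 of 7 alveolar type 1, 0 of 7 alveolar type 2, 0 of 7 airway, 0 of 6 erythroid and 0 of 6 heart muscle genes. The summed airway genes ranged from 3880 to 27666 FPKM in the IPF lungs and from 11681 to 23195 FPKM in the sham lungs. The part of these cells in the Cldn5 difference was not tested.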

How the data were processed

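Whole-lung mRNA libraries of 5 IPF and 5 sham mice were sequenced as 150 bp paired reads. After trimming (Fastp) and alignment (HISAT2), the authors quantified genes with StringTie and deposited 1 FPKM value per gene and lung. The methods name GRCm39, whereas the deposited gene positions match GRCm38, since chromosome 1 has a gene that ends at 195323493. Library kits differ between the sources (KAPA mRNA HyperPrep in the methods, NEBNext Ultra in the labels). Reads behind each value were recovered from FPKM and gene length, and 100.0% of values came within 0.1 of a whole read.

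The test was limma 3.58.1 (R 4.3.3, trended variance) on log2(FPKM + 0.1) for the 20448 genes averaging 0.1 FPKM or more, with no covariate, Benjamini-Hochberg adjustment over these genes and a call at an adjusted p under 0.05. The study itself tested counts and also asked for an absolute log2 fold change above 1. Replicates are separate mice. Exact permutation tests were two-sided. The scripts were tested on simulated data, and tables and figures were made in Python 3.11.15.

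The members and lists were chosen with earlier results of these data known. Named genes are the members, per related list up to 3 called genes in each direction with the smallest adjusted p or, with none called, the most abundant gene, and the 3 genes most like each member. Lists of other cells served as checks, and 1 gene of a related list is not reported here. Alternatives were other pseudocounts (1 and 0.01), filters, scalings and references, voom on recovered reads, a replicate block and leaving out each lung. P-values set the difference between the groups against the spread between these mice, and they cannot tell the fistula from sex. Low read numbers limit genes such as the selectins and Ccl2.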

Additional observations from a re-analysis of the deposited data

Results flagged for a closer look

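In groups of 5 lungs, a lung was noted where its gap to the nearest other lung took up more than the share of the group's range that Dixon's test allows. Of 118 groups of values tested, 13 had such a lung, and chance gives about 1 in 20. None of the 20 groups of the 10 endothelial identity genes did.

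IPF replicate 5 accounted for 8 of the 13. It had Cav1 at 618 FPKM, where the other IPF lungs had 469 to 502 FPKM, Gja4 at 42.9 FPKM, below 58.2 to 64.0 FPKM, and S100a9 at 185 FPKM, above 29.3 to 41.2 FPKM. Its clock genes lay apart as well, with Dbp at 3.49 FPKM, Npas2 at 1.29 FPKM, Nr1d2 at 17.3 FPKM, Per3 at 6.87 FPKM and Tef at 39.1 FPKM, each on the side of the sham lungs. Sham replicate 1, the lung with the lowest Cldn5, had Sftpc at 9437 FPKM, where the others had 14937 to 16514 FPKM, Ets1 at 40.5 FPKM, above 35.9 to 36.9 FPKM, and Per3 at 17.3 FPKM. Sham replicate 4 had Myct1 at 29.4 FPKM, above 22.8 to 23.8 FPKM. IPF replicate 1 had Elk3 at 38.4 FPKM, above 33.7 to 34.2 FPKM.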

How the results depend on the processing

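The count of members called was 1 under every alternative and with each lung left out. The log2 difference of Cldn5 was 0.46 to 0.56 over the 9 alternatives (adjusted p from 0.00173 to 0.0311 in limma). Over all genes, 748 to 1619 passed with a lung left out, the fewest without IPF replicate 4. The count with both limits, 233, was 74 with a pseudocount of 1. The related lists gave 12 to 33 genes with a lung left out. Under at least 1 other setting Tal1, Nostrin, Glp1r, Nr2f2, Gja5, Gja4, Plat, Ccl2, Gcnt1, Ets1, Cd52, Cd53 and Pdgfra lost their calls.

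Relative to the 4 general genes, the count of members was 0 with no filter or with no variance trend, and 0 to 1 with a lung left out. It was also 0 with Cdh5 alone or with Pecam1, Cdh5 and Erg as the reference. Over all genes, 1916 of 31425 passed with no filter. Of 20448 genes, 1797 passed with no variance trend, 1227 relative to Cdh5 alone and 886 relative to Pecam1, Cdh5 and Erg. The causes of these shifts were not tested.

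Signs turned for small differences. With quantile normalization Erg was -0.047, Sele 0.046 and Cav1 -0.026, and Sele was 0.0062 with a pseudocount of 0.01. Relative to Pecam1 alone Cdh5 was 0.17, Erg 0.060, Plvap 0.051, Gpihbp1 0.026, Vwf 0.046 and Sele 0.048, and relative to Pecam1, Cdh5 and Erg Cdh5 was 0.10. With a lung left out Erg ranged from -0.086 to 0.072, Plvap from -0.042 to 0.034, Gpihbp1 from -0.16 to 0.032, Vwf from -0.054 to 0.078, Sele from -0.17 to 0.13, and, relative to the 4 general genes, Cdh5 from -0.062 to 0.0066 and Car4 from -0.015 to 0.073. Among marker genes, Actc1 ranged from -0.45 to 0.022, Ager from -0.097 to 6.2e-05, Hbb-bs from -0.71 to 0.18 and Sftpc from -0.077 to 0.12. The correlation of Selp and Sele was -0.0545 by rank and -0.883 without 2 lungs.

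No correlation of the deviations of same-numbered lungs was above 0.1 (-0.0204 to 0.0953), and 3 of 5 IPF lungs correlated best with the sham lung of their own number, a hint from the data only. These values do not settle whether lungs of the same number were paired, and the main test treated the lungs as unpaired. With the replicate number as a block, 1045 genes passed instead of 1196, Cldn5 kept 0.56 (adjusted p = 0.0311 in limma), and Pf4 passed (adjusted p = 0.0397).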
